A study of Acomys cahirinus and Mus musculus with 6 samples.

Results

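Cells annotated as cycling basal keratinocytes, the dividing cells of the epidermis between hair follicles, were examined in healing ear pinna punches of spiny mice (Acomys cahirinus) and laboratory mice (Mus musculus). They are the cells that the authors' deposited annotation calls interfollicular epidermis basal (cycling), without those in clusters 1, 21, 31, 44 and 46. Of 2738 cells with that annotation, 201 lay in cluster 44 and were left out, so 2537 of the 39577 deposited cells are described. All 2537 lay in 3 of the authors' clusters, numbered 19, 22 and 24. Annotation and clusters were made by the authors from the same counts, so the genes that define them are described here and not tested.

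Gene expression was measured by droplet single-cell RNA sequencing, in which each captured transcript carries a unique molecular identifier (UMI). There were 6 libraries. Of the 4 from wild-type spiny mice, 3 followed injection of an inhibitor from day 12 to day 15, directed at ERK in 1 library, at ErbB2 in another and at FGFR1/2/3 in the last, and 1 followed DMSO over the same days. Of the 2 from CD1 mice, 1 followed implantation at day 10 of microbeads soaked in FGF2 and Nrg1, and 1 followed beads with PBS. ERK is the kinase at the end of the RAS and MAPK cascade, and FGF and ErbB receptors both signal into it. The sources used here do not give the number of animals behind a library, their age, or the names and doses of the compounds. Each group was 1 library, so no p-value or standard error is given, the 3 inhibitor comparisons share the DMSO library, and libraries are compared only within a species.

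The basal layer holds the proliferating keratinocytes of the epidermis. These cells carry the keratins Krt5 and Krt14, are anchored to the basement membrane by hemidesmosomes, and leave the layer as they differentiate and switch to Krt1 and Krt10. Before division the genome is licensed by the MCM helicase and copied in S phase, with E2F factors driving many of the genes needed. Cyclins A and B with Cdk1 then carry the cell through G2 and mitosis, and the anaphase-promoting complex ends mitosis with the help of Cdc20 and Ube2c. In wounds, growth factors of the EGF, neuregulin and FGF families act on basal cells, and keratinocytes near the wound turn on Krt6, Krt16 and Krt17.

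Cycling basal cells numbered 33 with the ERK inhibitor, 498 with the ErbB2 inhibitor, 282 with the FGFR inhibitor and 1344 with DMSO, and 186 with FGF2 and NRG1 beads and 194 with PBS beads. Their summed UMI counts, the depth behind every level below, were 684917 with the ERK inhibitor, 4274863 with the ErbB2 inhibitor, 2864643 with the FGFR inhibitor and 8138701 with DMSO, and 1733851 with FGF2 and NRG1 beads and 2114921 with PBS beads. The ERK inhibitor sum is the smallest, and 1 cell held 10.4% of it, against 0.524% with DMSO. The median cell had 16582 UMIs with the ERK inhibitor, 7890 with the ErbB2 inhibitor, 8729.5 with the FGFR inhibitor and 4527 with DMSO, and 9364.5 with FGF2 and NRG1 beads and 7292 with PBS beads. The same libraries had medians over all cells of 6915 UMIs with the ERK inhibitor, 4153 with the ErbB2 inhibitor, 5162.5 with the FGFR inhibitor and 3125 with DMSO, and 3904 with FGF2 and NRG1 beads and 3852 with PBS beads. Among the spiny mouse libraries DMSO thus had the lowest median in cycling basal cells and over all cells. Not every class went this way, since fibroblasts had medians of 2338 UMIs with the ERK inhibitor, 2930.5 with the ErbB2 inhibitor, 2061 with the FGFR inhibitor and 3414 with DMSO. Over all 39577 cells, 184 barcodes occurred in more than 1 library. No barcode was shared between cycling basal cells of different libraries, and sharing with cells of other types was not counted.

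Droplets also hold free RNA from broken cells, and a type that should lack keratins shows how much. Endothelial cells had Krt10 at 726 CPM with the ERK inhibitor, 12779 with the ErbB2 inhibitor, 3896 with the FGFR inhibitor and 12106 with DMSO, and at 235 with FGF2 and NRG1 beads and 376 with PBS beads, where CPM is the UMI count of a gene scaled to a common total of 1000000 UMIs over the cells named. Among the spiny mouse libraries, free RNA of the suprabasal keratin was thus most abundant with the ErbB2 inhibitor and DMSO. In the mouse it was more abundant with PBS beads. Endothelial values stand beside the results they touch, and a gene is said to be at the level of free RNA where its value in the higher library was less than 3 times the lowest of the other cell classes and more than 10-fold below the class with most of it. No doublet caller was run, and the sources used here do not say whether doublets had been removed before deposit.

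All 6 markers of the label were detected in every library, although basal keratins were weaker in cluster 22, as described below. Mki67, a nuclear protein of cycling cells (GRCm38 chr7:135689784-135716361, minus strand), had 461 CPM with the ERK inhibitor, 487 with the ErbB2 inhibitor, 631 with the FGFR inhibitor, 564 with DMSO, 946 with FGF2 and NRG1 beads and 794 with PBS beads. In the remaining interfollicular basal cells, which here and below also leave out clusters 1, 21, 31, 44 and 46, it had between 24.4 and 80.9 CPM. With every cell thinned at random to 3000 UMIs and shallower cells left out, a Mki67 UMI was found in 66.7% with the ERK inhibitor, 67.2% with the ErbB2 inhibitor, 71.7% with the FGFR inhibitor and 72.7% with DMSO, and in 85% with FGF2 and NRG1 beads and 81.2% with PBS beads. Endothelial cells of the same thinned depth had one in 0% with the ERK inhibitor, 3.57% with the ErbB2 inhibitor, 4.71% with the FGFR inhibitor and 13.9% with DMSO, and in 9.20% with FGF2 and NRG1 beads and 3.47% with PBS beads, so most of the signal in cycling basal cells lies above the free RNA level.

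Top2a, the topoisomerase that untangles replicated chromosomes (GRCm38 chr11:98992943-99024189, minus strand), had 1245 CPM with the ERK inhibitor, 1078 with the ErbB2 inhibitor, 1065 with the FGFR inhibitor, 1045 with DMSO, 1023 with FGF2 and NRG1 beads and 1006 with PBS beads. Ube2c, a ubiquitin-conjugating enzyme of the anaphase-promoting complex (GRCm38 chr2:164769898-164778822, plus strand), had 248 CPM with the ERK inhibitor, 305 with the ErbB2 inhibitor, 468 with the FGFR inhibitor, 444 with DMSO, 745 with FGF2 and NRG1 beads and 813 with PBS beads. Ccnb1, the mitotic cyclin B1 (GRCm38 chr13:100778650-100786570, minus strand), had 209 CPM with the ERK inhibitor, 229 with the ErbB2 inhibitor, 290.1 with the FGFR inhibitor, 275 with DMSO, 257 with FGF2 and NRG1 beads and 254 with PBS beads. All 3 were present in every library, with Top2a and Ccnb1 close between the 2 mouse libraries. Within the spiny mouse, Ube2c was lower with the ERK and ErbB2 inhibitors than with DMSO, by log2 ratios of -0.83 (-1.07 to -0.62) and -0.54 (-0.63 to -0.45) with 95% counting intervals.

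Krt5, the type II keratin of the basal layer (GRCm38 chr15:101707070-101712898, minus strand), had 11828 CPM with the ERK inhibitor, 9572 with the ErbB2 inhibitor, 15850.5 with the FGFR inhibitor, 17177 with DMSO, 6599 with FGF2 and NRG1 beads and 6680.1 with PBS beads. The remaining basal cells had more of it in every library, 23103 CPM with the ERK inhibitor, 19405 with the ErbB2 inhibitor, 23493 with the FGFR inhibitor, 23049 with DMSO, 10613 with FGF2 and NRG1 beads and 9559 with PBS beads. Krt14, its type I partner (GRCm38 chr11:100203162-100207548, minus strand), had 3374 CPM with the ERK inhibitor, 1934 with the ErbB2 inhibitor, 3216 with the FGFR inhibitor, 3480.2 with DMSO, 14748 with FGF2 and NRG1 beads and 14259.6 with PBS beads. Endothelial Krt5, which measures free RNA, was 233 CPM with the ERK inhibitor, 1567 with the ErbB2 inhibitor, 1775 with the FGFR inhibitor and 5089.6 with DMSO, and 274 with FGF2 and NRG1 beads and 396 with PBS beads. Summed over the 3 clusters, cycle genes and Krt5 were thus both present in both species, with Krt5 below its level in the remaining basal cells.

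The 3 clusters differed in size and depth between libraries. Cluster 19 held 5 cells with the ERK inhibitor, 148 with the ErbB2 inhibitor, 97 with the FGFR inhibitor and 523 with DMSO, and 59 with FGF2 and NRG1 beads and 45 with PBS beads. Cluster 22 held 21 cells with the ERK inhibitor, 217 with the ErbB2 inhibitor, 124 with the FGFR inhibitor and 377 with DMSO, and 54 with FGF2 and NRG1 beads and 52 with PBS beads. Cluster 24 held 7 cells with the ERK inhibitor, 133 with the ErbB2 inhibitor, 61 with the FGFR inhibitor and 444 with DMSO, and 73 with FGF2 and NRG1 beads and 97 with PBS beads. Cluster 24 was shallow, with median UMI counts of 1486 with the ERK inhibitor, 1801 with the ErbB2 inhibitor, 5171 with the FGFR inhibitor and 2815 with DMSO, and of 1268 with FGF2 and NRG1 beads and 1400 with PBS beads. Cluster 22 gave 73.5% of the UMIs with the ERK inhibitor, 46.6% with the ErbB2 inhibitor, 39.2% with the FGFR inhibitor and 24.4% with DMSO. A level over all cycling basal cells thus weights the clusters differently in each library, and values within clusters are given beside some of the results.

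Genes of division were among the highest in all 3 clusters when each was set against all other cells of its species. In the spiny mouse the first were Hmmr, Aurkb and Ect2 in cluster 19, Sgo1, Nusap1 and Hmmr in cluster 22, and Cdc20, Ccnb1 and Bub1b in cluster 24. In the mouse they were Nusap1, Ube2c and Sgo1 in cluster 19, Hist1h2bm, Esco2 and Hist1h1b in cluster 22, and Gm3550, Aspm and Knl1 in cluster 24. Hist1h2bm and Hist1h1b encode a core and a linker histone, and Esco2 an acetyltransferase that acts on cohesin during replication. Of the first 10 genes of a cluster, between 2 and 5 were on the S or G2/M lists, and none was on a marker list of another cell type. The cells each cluster was set against include those other types, so the ranking disfavours their markers and cannot tell which type a cluster is.

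Clusters 19 and 22 differed in keratin level. Krt5 in cluster 19 had 28646 CPM with the ERK inhibitor, 16223 with the ErbB2 inhibitor, 23320 with the FGFR inhibitor, 21243 with DMSO, 8838 with FGF2 and NRG1 beads and 9274 with PBS beads. In cluster 22 it had 5928 CPM with the ERK inhibitor, 4040.1 with the ErbB2 inhibitor, 5318 with the FGFR inhibitor, 7188 with DMSO, 3161 with FGF2 and NRG1 beads and 2956 with PBS beads. In every library cluster 22 was the lower, and in the 2 mouse libraries the difference was similar. With DMSO the level in cluster 22 was little above the 5089.6 CPM of endothelial cells and the 5785 CPM of T cells in the same library, which measure free RNA, so the basal label rests least on Krt5 there. Krt14 in cluster 22 had 1504 CPM with the ERK inhibitor, 719.8 with the ErbB2 inhibitor, 813 with the FGFR inhibitor and 1269.6 with DMSO, and 5682 with FGF2 and NRG1 beads and 5269.8 with PBS beads, again below cluster 19 in each library.

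Of 5065 genes measured in both clusters of 5 libraries, 65 (1.28%) were at least 2-fold higher in cluster 22 in every one of them and 32 (0.632%) at least 2-fold higher in cluster 19. The ERK inhibitor library was left out because its cluster 19 had 5 cells. These genes are part of what the clustering used, and those named here were chosen after their values were seen. Gsta3, a glutathione transferase, had 540.3 CPM with the ERK inhibitor, 426 with the ErbB2 inhibitor, 505 with the FGFR inhibitor, 325 with DMSO, 158 with FGF2 and NRG1 beads and 257 with PBS beads in cluster 22. In cluster 19 it had 11.8 CPM with the ERK inhibitor, 30.4 with the ErbB2 inhibitor, 34.5 with the FGFR inhibitor, 23.8 with DMSO, 10.0 with FGF2 and NRG1 beads and 12.9 with PBS beads. Akr1c18, an aldo-keto reductase that degrades progesterone, had 280.1 CPM with the ERK inhibitor, 226 with the ErbB2 inhibitor, 273 with the FGFR inhibitor, 185 with DMSO, 802 with FGF2 and NRG1 beads and 1471 with PBS beads in cluster 22. Its cluster 19 levels were 5.88 CPM with the ERK inhibitor, 15.5 with the ErbB2 inhibitor, 8.27 with the FGFR inhibitor, 15.1 with DMSO, 20.002 with FGF2 and NRG1 beads and 17.9 with PBS beads.

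Pparg, Sox9 and Krt79 were among the 65. Pparg, the nuclear receptor of fat and sebaceous cells, had 90.8 CPM with the ErbB2 inhibitor, 45.5 with the FGFR inhibitor, 33.2 with DMSO, 45.96 with FGF2 and NRG1 beads and 48.6 with PBS beads in cluster 22. In cluster 19 it had 4.59 CPM with the ErbB2 inhibitor, 1.38 with the FGFR inhibitor, 4.67 with DMSO, 2.5002 with FGF2 and NRG1 beads and 0 with PBS beads. Sox9, a transcription factor of the outer root sheath and the bulge, had 111 CPM with the ErbB2 inhibitor, 141 with the FGFR inhibitor, 133 with DMSO, 188 with FGF2 and NRG1 beads and 199 with PBS beads in cluster 22. Its cluster 19 levels were 10.9 CPM with the ErbB2 inhibitor, 15.2 with the FGFR inhibitor, 14.9 with DMSO, 27.5 with FGF2 and NRG1 beads and 21.9 with PBS beads. Krt79, a keratin of the follicle's upper duct, had 543 CPM with the ErbB2 inhibitor, 588 with the FGFR inhibitor, 626 with DMSO, 185 with FGF2 and NRG1 beads and 167 with PBS beads in cluster 22. Cluster 19 had 59.7 CPM with the ErbB2 inhibitor, 41.4 with the FGFR inhibitor, 66.7 with DMSO, 17.5 with FGF2 and NRG1 beads and 80.7 with PBS beads of it. Ces1d, Foxc1 and Lcn2 were also among the 65. Saa3, Akr1d1 and Fbp1 were at least 2-fold higher in cluster 22 in the 3 spiny mouse libraries with both clusters measured, and had too few UMIs in the mouse to count. With DMSO, Pparg had 178 CPM in sebaceous cells and 5.53 in the remaining basal cells. Fbp1 had 91.1 CPM in cluster 22, 270 in sebaceous cells and 4.57 in the remaining basal cells. Scd1, also a sebaceous marker, had 2.01 CPM in cluster 22, 3.09 in sebaceous cells and 1.55 in the remaining basal cells. Cluster 22 is called only by its number, since its basal keratins are low and the marker lists hold too few genes to name it. For its cells the name cycling basal keratinocytes is the authors' annotation only.

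Among the 32 genes higher in cluster 19 were the Wnt ligands Wnt3 and Wnt16, the growth factor binding protein Igfbp3, the serpin Serpinb7 and the POU factor Pou3f1. Wnt3 had 78.0 CPM with the ErbB2 inhibitor, 112 with the FGFR inhibitor, 103 with DMSO, 55.0 with FGF2 and NRG1 beads and 92.6 with PBS beads in cluster 19. In cluster 22 it had 3.51 CPM with the ErbB2 inhibitor, 1.78 with the FGFR inhibitor, 11.6 with DMSO, 1.44 with FGF2 and NRG1 beads and 1.31 with PBS beads. Pou3f1 had 384 CPM with the ErbB2 inhibitor, 392 with the FGFR inhibitor, 374 with DMSO, 334 with FGF2 and NRG1 beads and 279 with PBS beads in cluster 19. Its cluster 22 levels were 21.1 CPM with the ErbB2 inhibitor, 27.6 with the FGFR inhibitor, 64.9 with DMSO, 47.4 with FGF2 and NRG1 beads and 61.7 with PBS beads. The same direction in all 5 libraries is what chose these genes, and the authors clustered both species together.

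**Figure D1:**
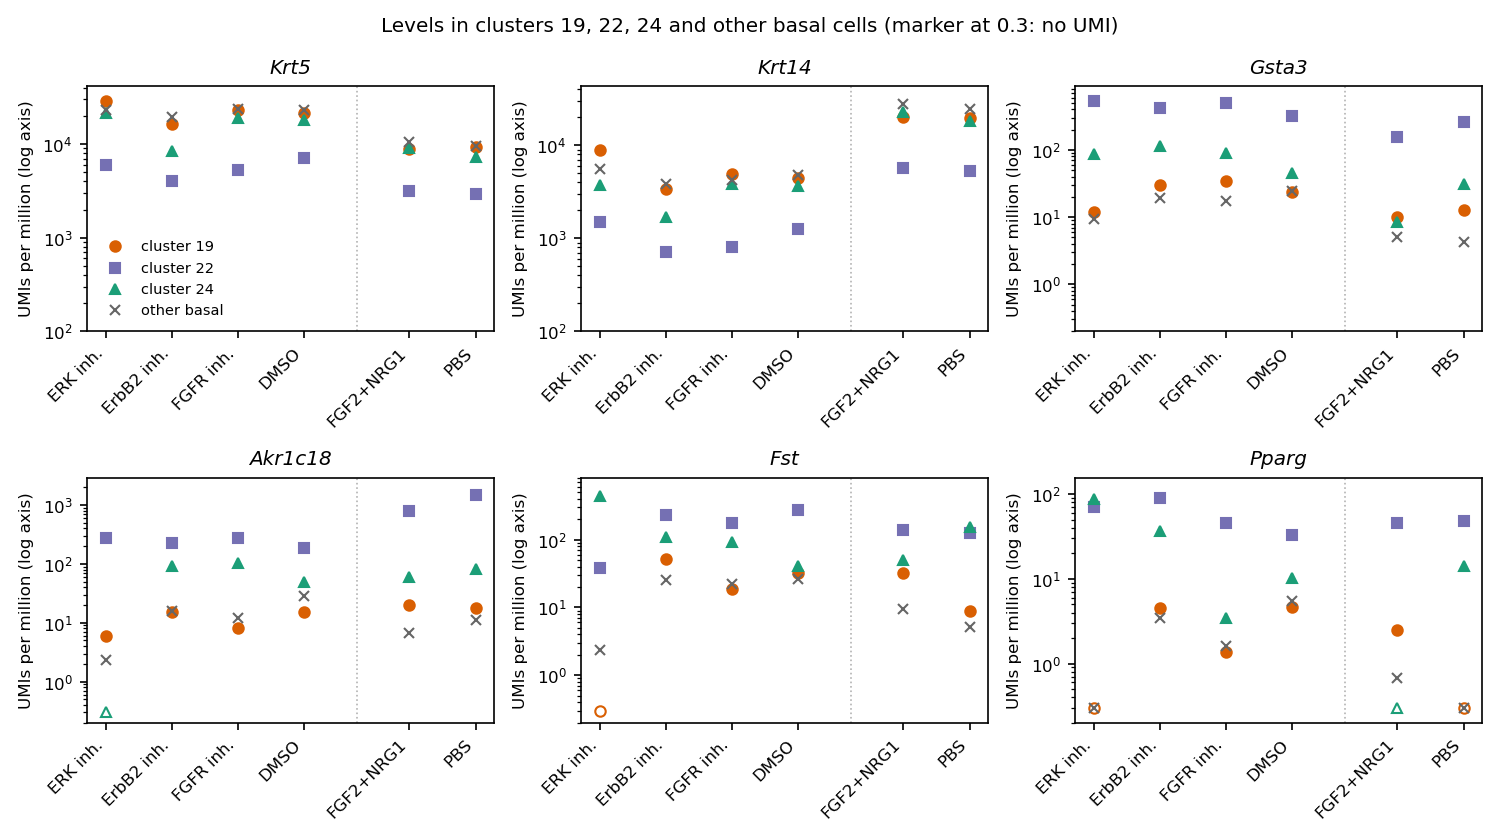
Levels of Krt5, Krt14, Gsta3, Akr1c18, Fst and Pparg (CPM, log axis) in clusters 19, 22 and 24 and in the remaining interfollicular basal cells of each library, with 1 point per library and class and a marker at 0.3 for no UMI. Krt5 and Krt14 lie lower in cluster 22 than in cluster 19, and Gsta3, Akr1c18 and Pparg lie higher, in every library with cells enough to compare.

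Cycling basal cells made up a smaller share of each inhibitor library than of the DMSO library. Of all cells they were 5.23% (3.63 to 7.27%) with the ERK inhibitor, 4.68% (4.29 to 5.10%) with the ErbB2 inhibitor, 5.90% (5.25 to 6.60%) with the FGFR inhibitor and 8.75% (8.31 to 9.21%) with DMSO, with exact 95% intervals that cover counting error only, as all intervals below do. Of the interfollicular basal cells they were 32.04% (23.2 to 42.0%) with the ERK inhibitor, 30.8% (28.6 to 33.2%) with the ErbB2 inhibitor, 30.1% (27.2 to 33.2%) with the FGFR inhibitor and 32.9% (31.5 to 34.4%) with DMSO. The basal cells counted in these shares leave out clusters 1, 21, 31, 44 and 46, as do those of the mouse below. Cluster 1 alone held 22 cells with the ERK inhibitor, 700 with the ErbB2 inhibitor, 266 with the FGFR inhibitor and 1013 with DMSO. Against all cells the inhibitor shares lay below DMSO, whereas against these basal cells the 4 libraries lay between 30.1% and 32.9%. Of all interfollicular cells, no cluster left out, the inhibitor shares were 11.4% (ERK), 8.83% (ErbB2) and 11.2% (FGFR), and DMSO's 15.9%. Among basal cells of at least 3000 UMIs, where depth is more even, the shares were 25.5% with the ERK inhibitor, 28.7% with the ErbB2 inhibitor, 28.5% with the FGFR inhibitor and 34.2% with DMSO. Cluster assignment can depend on depth, and the part of depth in these shares was not tested.

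In the mouse they were 3.64% (3.15 to 4.195%) with FGF2 and NRG1 beads and 6.33% (5.49 to 7.25%) with PBS beads of all cells, and 38.0% (33.7 to 42.5%) with FGF2 and NRG1 beads and 35.3% (31.3 to 39.5%) with PBS beads of interfollicular basal cells. Among basal cells of at least 3000 UMIs the shares were 29.6% (25.2 to 34.3%) with FGF2 and NRG1 beads and 24.5% (20.6 to 28.7%) with PBS beads. The share of basal cells had overlapping intervals between the 2 mouse libraries under both counts, while the share of all cells was lower with FGF2 and NRG1 beads. A share of captured cells also depends on how each tissue came apart, and fewer cycling cells cannot be told apart from more cells of other types.

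Phase make-up was read from 2 published gene lists, 43 genes of S phase and 54 genes of G2 and mitosis. Each cell was thinned to 3000 UMIs, and the G2/M part of its list UMIs placed it on the S side (below 1/3), on the G2/M side (above 2/3) or between (mixed). Cells with at least 3000 UMIs numbered 24 with the ERK inhibitor, 418 with the ErbB2 inhibitor, 251 with the FGFR inhibitor and 965 with DMSO, and 120 with FGF2 and NRG1 beads and 112 with PBS beads, and all of them had the 5 list UMIs needed. These classes are ranges of a score, not types. Within 5 percentage points of a limit lay 8 cells with the ERK inhibitor, 73 with the ErbB2 inhibitor, 24 with the FGFR inhibitor and 90 with DMSO, and 12 with FGF2 and NRG1 beads and 10 with PBS beads.

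Most cells lay on the G2/M side in every library, and fewer did with the inhibitors than with DMSO. The G2/M side held 62.5% (40.6 to 81.2%) with the ERK inhibitor, 69.6% (65.0 to 74.0%) with the ErbB2 inhibitor, 78.1% (72.5 to 83.0%) with the FGFR inhibitor and 88.7% (86.5 to 90.6%) with DMSO. The intervals of the ErbB2 and FGFR inhibitors lie below that of DMSO, and the interval of the ERK inhibitor, from 24 cells, does too. S-side cells numbered 0 with the ERK inhibitor, 25 with the ErbB2 inhibitor, 7 with the FGFR inhibitor and 2 with DMSO, and mixed cells 9 with the ERK inhibitor, 102 with the ErbB2 inhibitor, 48 with the FGFR inhibitor and 107 with DMSO. In the mouse the G2/M side held 78.3% (69.9 to 85.3%) with FGF2 and NRG1 beads and 70.5% (61.2 to 78.8%) with PBS beads, with overlapping intervals, and each mouse library had 2 S-side cells. The level of this share depends on the genes counted. In lists of roles, the S phase roles joined licensing, nucleotide and DNA synthesis, and chromatin assembly. They thereby counted Hmgb2, a gene of the G2/M list, for S phase, and its part in the shares that follow was not tested. With the lists of roles below, S phase roles against mitotic roles, the G2/M side held 8.33% with the ERK inhibitor, 15.6% with the ErbB2 inhibitor, 12.7% with the FGFR inhibitor and 13.7% with DMSO, and 47.5% with FGF2 and NRG1 beads and 44.6% with PBS beads, and DMSO was no longer the highest. Median S list UMIs per thinned cell were 12 with the ERK inhibitor, 10 with the ErbB2 inhibitor, 8 with the FGFR inhibitor and 7 with DMSO, and 8 with FGF2 and NRG1 beads and 9 with PBS beads. Median G2/M list UMIs were 38.5 with the ERK inhibitor, 37.5 with the ErbB2 inhibitor, 49 with the FGFR inhibitor and 44 with DMSO, and 49 with FGF2 and NRG1 beads and 38 with PBS beads.

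The clusters differed in phase, and the libraries differed in clusters. In cluster 22 the G2/M side held 52.6% (28.9 to 75.6%) with the ERK inhibitor, 49.8% (42.8 to 56.7%) with the ErbB2 inhibitor, 53.8% (44.4 to 63.1%) with the FGFR inhibitor and 69.9% (63.9 to 75.4%) with DMSO of 19 cells scored with the ERK inhibitor, 211 with the ErbB2 inhibitor, 117 with the FGFR inhibitor and 259 with DMSO. In cluster 19 it held 100% with the ERK inhibitor, 88.5% with the ErbB2 inhibitor, 100% with the FGFR inhibitor and 96.2% with DMSO, and in cluster 24 100% with the ERK inhibitor, 93.2% with the ErbB2 inhibitor, 97.3% with the FGFR inhibitor and 94.1% with DMSO, with 4 and 1 cells scored with the ERK inhibitor. All 34 S-side cells of the spiny mouse and all 4 of the mouse lay in cluster 22. Within cluster 22 the G2/M share with DMSO still exceeded those with the ErbB2 and FGFR inhibitors, and the ERK inhibitor's interval included it. In the mouse the cluster 22 shares were 61.2% (46.2 to 74.8%) with FGF2 and NRG1 beads and 43.8% (29.5 to 58.8%) with PBS beads, and those of cluster 19 were 88.5% (76.6 to 95.6%) with FGF2 and NRG1 beads and 87.5% (73.2 to 95.8%) with PBS beads.

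The score reads few UMIs in cells that do not divide, so the same score was taken in other cells. Of the remaining basal cells, 50 of 70 with the ERK inhibitor, 707 of 1040 with the ErbB2 inhibitor, 439 of 630 with the FGFR inhibitor and 1674 of 1856 with DMSO had 5 list UMIs. Their median G2/M list UMIs were 4 with the ERK inhibitor, 4 with the ErbB2 inhibitor, 4 with the FGFR inhibitor and 6 with DMSO, against 38.5 with the ERK inhibitor, 37.5 with the ErbB2 inhibitor, 49 with the FGFR inhibitor and 44 with DMSO in cycling basal cells. Endothelial cells had medians of 4 with the ERK inhibitor, 4 with the ErbB2 inhibitor, 5 with the FGFR inhibitor and 6 with DMSO. Cells that mostly do not divide can thus be scored from a few UMIs.

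**Figure D2:**
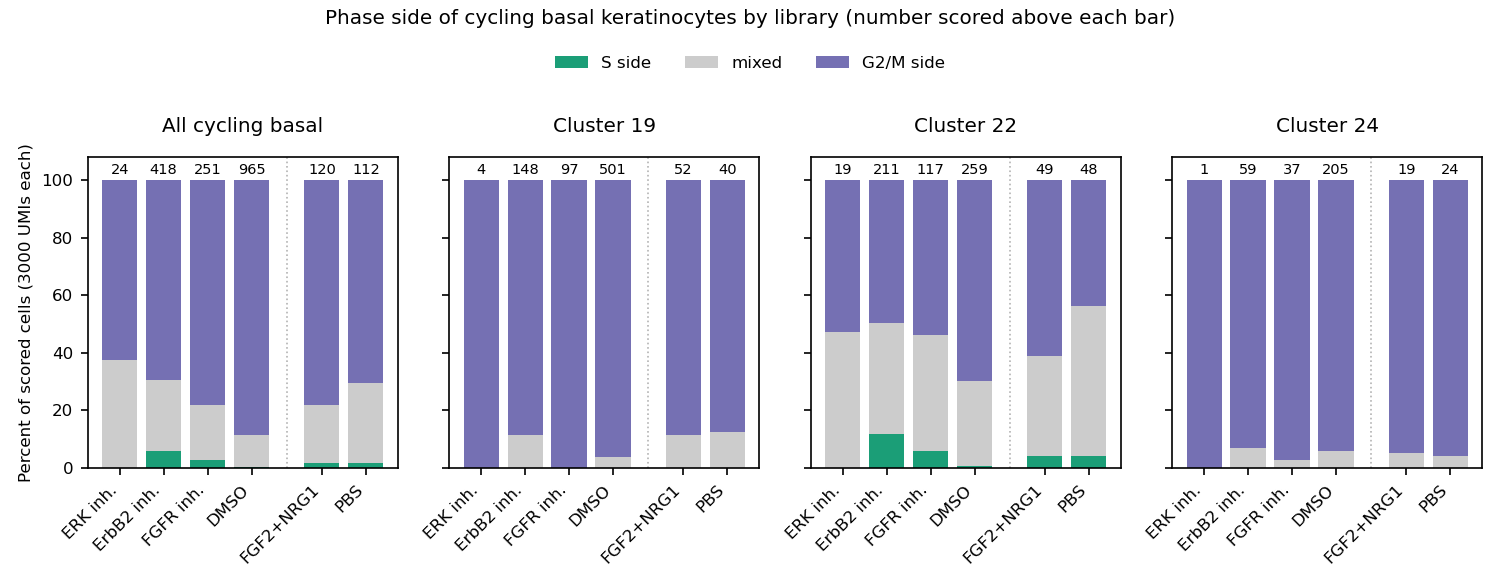
Share of scored cells (percent, thinned to 3000 UMIs) on the S side, mixed and on the G2/M side in each library, for all cycling basal cells and for clusters 19, 22 and 24, with the number of cells scored above each bar. Among the spiny mouse libraries the G2/M part is largest with DMSO over all cycling basal cells and in cluster 22, and the S side is seen only in cluster 22.

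Single genes were then compared between the sides. In the spiny mouse the S side held 34 cells, the mixed range 266 and the G2/M side 1358. Ung, the uracil glycosylase that repairs newly copied DNA, had a UMI in 44.1% of S-side, 18.0% of mixed and 2.06% of G2/M-side cells. Mcm5, a subunit of the replicative helicase, had one in 44.1% of S-side, 27.1% of mixed and 9.79% of G2/M-side cells. Mcm6 had one in 55.9% of S-side, 50% of mixed and 16.7% of G2/M-side cells. Some other S list genes were not highest on the S side. Tyms had one in 50% of S-side, 52.3% of mixed and 36.3% of G2/M-side cells, Rrm2, a subunit of ribonucleotide reductase, in 5.88% of S-side, 14.3% of mixed and 6.55% of G2/M-side cells, and Ccne2 in 2.94% of S-side, 5.26% of mixed and 0.736% of G2/M-side cells. All of these are on the S list that makes the score, so differences between sides are partly fixed by it. The mouse had 4 S-side cells, too few to compare, and Mcm5 was found in none of them. Of genes on neither list, Ccna2, the cyclin of S and G2, was found in 17.6% of S-side, 53.8% of mixed and 79.0% of G2/M-side cells. Plk1, the polo kinase of mitotic entry, was found in 0% of S-side, 9.77% of mixed and 48.5% of G2/M-side cells. Ccnb1 was found in 2.94% of S-side, 7.89% of mixed and 56.8% of G2/M-side cells.

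The sides were close in the number of genes seen per thinned cell, with medians of 1249.5 on the S side, 1245 in the mixed range and 1259 on the G2/M side. Mixed cells carried both programmes, with medians of 16 S list and 16 G2/M list UMIs. G2/M-side cells had 6 and 50, and S-side cells 15 and 5. Mki67 was present in 8.82% of S-side, 48.9% of mixed and 78.3% of G2/M-side cells, and Top2a in 23.5% of S-side, 74.4% of mixed and 76.4% of G2/M-side cells. Both are on the G2/M list, so a low share on the S side follows from how the sides were made. Ccnd1, the cyclin that growth factors induce in G1, was found in 11.8% of S-side, 25.2% of mixed and 19.4% of G2/M-side cells, and Cdkn1a, the p21 inhibitor of cyclin-dependent kinases, in 0% of S-side, 1.13% of mixed and 1.47% of G2/M-side cells.

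Some cycling cells carried more suprabasal than basal keratin. Of cells thinned to 3000 UMIs, 125 of 418 with the ErbB2 inhibitor (29.9%), 16 of 251 with the FGFR inhibitor (6.37%) and 204 of 965 with DMSO (21.1%) had more UMIs of Krt1 and Krt10 than of Krt5 and Krt14. There were 0 of 24 with the ERK inhibitor, which allows a share of up to 14.2%. In the mouse there were 0 of 120 with FGF2 and NRG1 beads, which allows up to 3.03%, and 1 of 112 with PBS beads (0.893%). Within cluster 22 the shares were 43.6% with the ErbB2 inhibitor, 9.40% with the FGFR inhibitor and 35.9% with DMSO. Within cluster 19 they were 7.43% with the ErbB2 inhibitor, 2.06% with the FGFR inhibitor and 8.58% with DMSO. Over all cycling basal cells the order of the libraries within each species is that of Krt10 in their endothelial cells. Within cluster 19 DMSO and the ErbB2 inhibitor change places. Free RNA thus moves with the share over all cycling basal cells, and its part was not tested.

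Cycle genes were then summed over all cells, without a score. The S list had 4021 CPM with the ERK inhibitor, 3225 with the ErbB2 inhibitor, 2923 with the FGFR inhibitor and 2646 with DMSO, and the G2/M list 14643 CPM with the ERK inhibitor, 13604 with the ErbB2 inhibitor, 17088 with the FGFR inhibitor and 15624 with DMSO. For the S list the log2 ratios over DMSO were 0.60 (0.55 to 0.66) with the ERK inhibitor, 0.29 (0.25 to 0.32) with the ErbB2 inhibitor and 0.14 (0.11 to 0.18) with the FGFR inhibitor. For the G2/M list they were -0.094 (-0.12 to -0.064) with the ERK inhibitor, -0.20 (-0.21 to -0.19) with the ErbB2 inhibitor and 0.13 (0.11 to 0.14) with the FGFR inhibitor. Summed over the clusters, the S list was thus higher in cycling basal cells of all 3 inhibitor libraries, while the G2/M list was lower with the ERK and ErbB2 inhibitors and higher with the FGFR inhibitor.

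Clusters and other cells put these ratios in context. Weighted to DMSO's mix of clusters, the S list gave 0.60 with the ERK inhibitor, 0.18 with the ErbB2 inhibitor and -0.068 with the FGFR inhibitor. Within cluster 22, which holds the S-side cells, the S list gave 0.13 with the ERK inhibitor, -0.032 with the ErbB2 inhibitor and 0.16 with the FGFR inhibitor, and within cluster 19 0.48 with the ERK inhibitor, 0.30 with the ErbB2 inhibitor and -0.20 with the FGFR inhibitor. Within cluster 24 it gave 1.84 with the ERK inhibitor, from 7 cells, 0.13 with the ErbB2 inhibitor and -0.22 (-0.39 to -0.049) with the FGFR inhibitor. In the remaining basal cells the S list gave -0.79 with the ERK inhibitor, -0.46 with the ErbB2 inhibitor and -0.74 with the FGFR inhibitor, and in endothelium -0.93 with the ERK inhibitor, -0.46 with the ErbB2 inhibitor and -0.28 with the FGFR inhibitor. All 3 inhibitor libraries thus lay below DMSO in the cells that mostly do not cycle, where list UMIs are few. Within cycling basal cells the direction with the FGFR inhibitor turned under the weighting and within clusters 19 and 24. With the ErbB2 inhibitor the interval within cluster 22, -0.079 to 0.015, included no difference. Endothelial cells of the DMSO library had the highest levels of both lists among the spiny mouse libraries, 1173 CPM for the S list and 2783 CPM for the G2/M list. Some endothelial cells may divide themselves, and the part of free RNA in these and the other cells was not tested.

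The G2/M list weighted to DMSO's mix gave 0.11 with the ERK inhibitor, -0.13 with the ErbB2 inhibitor and 0.090 with the FGFR inhibitor. Within cluster 19 it gave -0.047 with the ERK inhibitor, -0.0079 with the ErbB2 inhibitor and 0.20 with the FGFR inhibitor, and within cluster 22 -0.22 with the ERK inhibitor, -0.48 with the ErbB2 inhibitor and -0.062 with the FGFR inhibitor. Within cluster 22 all 3 ratios were thus below 0, with the ErbB2 inhibitor farthest. Within cluster 24 the G2/M list gave 1.02 with the ERK inhibitor, from 7 cells, -0.16 with the ErbB2 inhibitor and -0.22 with the FGFR inhibitor. In the remaining basal cells the G2/M list gave -0.75 with the ERK inhibitor, -0.73 with the ErbB2 inhibitor and -0.55 with the FGFR inhibitor, and in endothelium -1.14 with the ERK inhibitor, -0.72 with the ErbB2 inhibitor and -0.62 with the FGFR inhibitor.

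**Figure D3:**
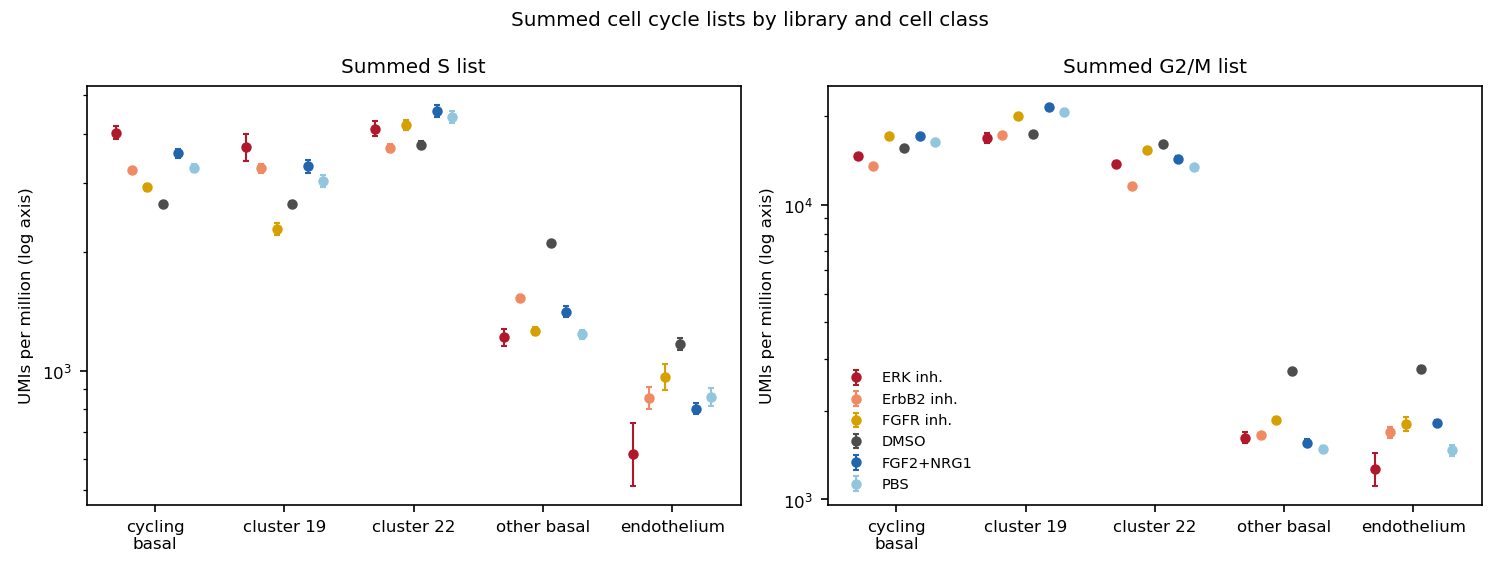
Summed S and G2/M list levels (CPM, log axis) in all cycling basal cells, clusters 19 and 22, the remaining basal cells and endothelium of each library, with exact Poisson 95% intervals. Both lists lie far higher in cycling basal cells than in the remaining basal cells, and DMSO is the highest spiny mouse library in the remaining basal cells and in endothelium.

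Replication genes were higher in cycling basal cells with the ERK inhibitor. A gene counts as measured where the mean of the 2 levels would give at least 10 UMIs in the shallower sum, and a gene is called higher or lower here where its level differed by at least 1.5-fold, which is a size and not a test. Of 5394 measured genes, 716 (13.3%) were higher and 543 (10.1%) lower. At 3000 UMIs a cell the counts were 210 higher and 95 lower. In the same comparison 13.8% of measured genes were higher and 10.2% lower in the remaining basal cells, 15.2% and 9.47% in cluster 19, and 11.5% and 10.5% in cluster 22. Of the S list, 21 of 37 measured genes were higher and none lower, with a median log2 ratio of 0.63 against 0.04 over all measured genes. Licensing genes counted 8 of 12 higher, among them the helicase subunits Mcm3 with 123 CPM with the ERK inhibitor, against 55.0 with DMSO, and Mcm6 with 179.6 CPM with the ERK inhibitor, against 87.2 with DMSO. Genes of nucleotide and DNA synthesis counted 10 of 17 higher. Of these, the clamp Pcna had 381 CPM with the ERK inhibitor, against 240.5 with DMSO, the thymidylate synthase Tyms 256 CPM with the ERK inhibitor, against 159 with DMSO, and the dUTPase Dut 442 CPM with the ERK inhibitor, against 276 with DMSO. E2f1, the transcription factor of the G1 to S transition, had 54.0 CPM with the ERK inhibitor, against 19.7 with DMSO, with UMIs in 14 of 33 cells.

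Cluster 22 held 73.5% of the ERK inhibitor's UMIs and 24.4% of DMSO's. Within it, 5 of 37 measured S list genes were higher and 2 lower (median 0.19). Pcna within cluster 22 had a log2 ratio of -0.00013, Mcm6 0.39 and Mcm3 0.83. Cluster 19, with 5 cells, gave 11 of 18 higher (median 0.62). The S list was thus closer to DMSO within cluster 22 than over all cells. In the remaining basal cells 21 of 33 S list genes were lower and none higher.

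Genes of mitosis were closer to DMSO. Of the G2/M list, 3 of 49 measured genes were higher and 3 lower (median -0.14). The 3 lower ones were Ube2c, Cdc20, the activator of the anaphase-promoting complex, and Kif2c, a kinesin that corrects chromosome attachment. Cdc20 had 308 CPM with the ERK inhibitor, against 492 with DMSO, and Kif2c had 40.9 CPM with the ERK inhibitor, against 64.0 with DMSO. Pttg1, the securin that the same complex destroys, had 210.2 CPM with the ERK inhibitor, against 354 with DMSO.

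The ErbB2 inhibitor gave the same list a smaller shift. Of 9033 measured genes, 797 (8.82%) were higher and 586 (6.49%) lower. These shares were 7.21% and 8.16% in the remaining basal cells, 7.94% and 5.27% in cluster 19, and 7.79% and 9.66% in cluster 22. S list genes counted 10 of 42 higher and none lower (median 0.40). Among them were Ung with 29.2 CPM with the ErbB2 inhibitor, against 14.9 with DMSO, Cdca7 with 119.8 CPM with the ErbB2 inhibitor, against 69.3 with DMSO, and Rpa2, a subunit of the protein that coats single-stranded DNA, with 135 CPM with the ErbB2 inhibitor, against 78.1 with DMSO. Pcna, with 267 CPM with the ErbB2 inhibitor, against 240.5 with DMSO, had a log2 ratio of 0.15 (0.043 to 0.26). G2/M list genes counted none higher and 1 of 50 lower (median -0.059). That gene was Tubb4b, a tubulin of spindles and cilia, with 1245 CPM with the ErbB2 inhibitor, against 1905 with DMSO.

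Within cluster 22, 3 of 42 S list genes were higher (median 0.024) and 9 of 50 G2/M list genes lower (median -0.30). Within cluster 19, 8 of 38 S list genes were higher (median 0.36). The S list thus lay higher in cluster 19 and the G2/M list lower in cluster 22, and the difference between the clusters was not tested.

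With the FGFR inhibitor both lists lay close to DMSO. Of 8347 measured genes, 446 (5.34%) were higher and 450 (5.39%) lower. Higher and lower genes made up 4.37% and 8.19% in the remaining basal cells, 4.16% and 5.98% in cluster 19, and 6.81% and 7.02% in cluster 22. The S list counted 3 of 41 higher (median 0.24), namely Cenpu, Ccne2 and Cdc6, and the G2/M list 1 of 50 higher (median 0.080). Ccne2, the cyclin E of S phase entry, had 6.98 CPM with the FGFR inhibitor, against 3.32 with DMSO, and Cdc6, which loads the helicase, 5.24 CPM with the FGFR inhibitor, against 3.44 with DMSO, both at few UMIs. In the remaining basal cells 29 of 40 S list and 34 of 48 G2/M list genes were lower.

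FGF2 and NRG1 beads gave cycle gene levels close to those with PBS beads. Of 9426 measured genes, 591 (6.27%) were higher and 512 (5.43%) lower. The like shares were 4.12% and 5.31% in the remaining basal cells, 8.85% and 7.59% in cluster 19, and 7.87% and 8.1% in cluster 22. The S list counted 1 of 43 higher, namely Dscc1, and the G2/M list none of 54 in either direction, with medians of 0.15 and 0.077. Summed, the S list had 3565 CPM with FGF2 and NRG1 beads and 3273 with PBS beads, a log2 ratio of 0.12 (0.074 to 0.17). The G2/M list had 17112 CPM with FGF2 and NRG1 beads and 16304 with PBS beads, a log2 ratio of 0.070 (0.047 to 0.092). The counting intervals bound these differences for the 2 libraries only, and spread between animals could not be measured. Ccnd2, a D-type cyclin, had 468 CPM with FGF2 and NRG1 beads, against 351 with PBS beads, and Ccnd1 102 CPM with FGF2 and NRG1 beads, against 111 with PBS beads.

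Known targets of ERK signalling gave no single direction across the inhibitors. Dusp6, the phosphatase that ERK induces and that switches ERK off, had 5.84 CPM with the ERK inhibitor, 9.36 with the ErbB2 inhibitor, 19.2 with the FGFR inhibitor and 19.4 with DMSO. With the ErbB2 inhibitor its log2 ratio was -1.03 (-1.59 to -0.54), and with the FGFR inhibitor 0.00092 (-0.49 to 0.44). Its 4 UMIs with the ERK inhibitor were too few to count as measured. Spry2, a feedback inhibitor of receptor signalling, had 13.1 CPM with the ERK inhibitor, 13.6 with the ErbB2 inhibitor, 18.2 with the FGFR inhibitor and 20.8 with DMSO, and Etv4, an ETS factor downstream of FGF receptors, 26.3 CPM with the ERK inhibitor, 38.4 with the ErbB2 inhibitor, 24.8 with the FGFR inhibitor and 25.3 with DMSO. Etv4 was higher with the ErbB2 inhibitor, with a log2 ratio of 0.60 (0.30 to 0.90), while Spry2 was lower at -0.60 (-1.07 to -0.18).

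Of the list of ERK targets, the ErbB2 inhibitor had 2 higher and 7 of 12 lower (median -0.64), beside 8.82% and 6.49% of all measured genes. In the remaining basal cells the count was 2 higher and 2 lower of 14 (median 0.00079). The FGFR inhibitor had 1 of 11 higher and none lower (median 0.24), and the ERK inhibitor 2 higher and 2 of 6 lower (median -0.20). In the mouse the beads gave 1 higher and 1 lower of 13 (median -0.17). The list was thus lower in cycling basal cells with the ErbB2 inhibitor, and most of its members were measured with too few UMIs with the ERK inhibitor.

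Ccnd1 and Myc are 2 growth factor targets that act on the cycle. Ccnd1 had 62.8 CPM with the ERK inhibitor, 54.7 with the ErbB2 inhibitor, 85.9 with the FGFR inhibitor and 99.9 with DMSO. Its log2 ratios over DMSO were -0.64 (-1.15 to -0.23) with the ERK inhibitor, -0.86 (-1.08 to -0.66) with the ErbB2 inhibitor and -0.21 (-0.43 to -0.011) with the FGFR inhibitor. With the ErbB2 inhibitor it was lower in each cluster, at -0.72 in cluster 19, -0.89 in cluster 22 and -0.95 in cluster 24, and at -0.58 in the remaining basal cells. Myc, a growth-promoting transcription factor, had 83.2 CPM with the ERK inhibitor, 13.6 with the ErbB2 inhibitor, 32.1 with the FGFR inhibitor and 21.99 with DMSO. Its log2 ratios were 1.94 (1.46 to 2.36) with the ERK inhibitor, -0.68 (-1.15 to -0.26) with the ErbB2 inhibitor and 0.55 (0.17 to 0.92) with the FGFR inhibitor. The ERK inhibitor value rests on 17 of 33 cells with a UMI, with 33.3% of the UMIs in 1 cell, and it was 2.06 within cluster 22 and 1.33 in the remaining basal cells. Myc thus stood highest with the ERK inhibitor and lowest with the ErbB2 inhibitor.

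Immediate early genes, which many stimuli including tissue dissociation induce, lay above DMSO with the FGFR inhibitor and below it with the ErbB2 inhibitor. Fos had 18.98 CPM with the ERK inhibitor, 11.7 with the ErbB2 inhibitor, 297 with the FGFR inhibitor and 65.7 with DMSO. Its log2 ratios were -1.69 (-2.71 to -1.01) with the ERK inhibitor, -2.46 (-2.94 to -2.07) with the ErbB2 inhibitor and 2.18 (2.02 to 2.34) with the FGFR inhibitor. With the FGFR inhibitor it was found in 122 of 282 cells, against 203 of 1344 with DMSO, and it was 2.53 in cluster 19, 1.67 in cluster 22 and 2.21 in the remaining basal cells. Endothelial Fos was 0 CPM with the ERK inhibitor, 16.2 with the ErbB2 inhibitor, 113 with the FGFR inhibitor and 28.9 with DMSO, so the difference with the FGFR inhibitor was not confined to keratinocytes. Of the list, 7 of 14 were higher and 1 lower with the FGFR inhibitor (median 0.72), among them Fosb with 30.4 CPM with the FGFR inhibitor, against 7.50 with DMSO, Jun with 112 CPM with the FGFR inhibitor, against 41.8 with DMSO, and Dusp1 with 242 CPM with the FGFR inhibitor, against 93.4 with DMSO. With the ErbB2 inhibitor 1 was higher and 7 of 13 lower (median -0.91). With the ERK inhibitor 4 of 7 were lower, whereas 7 of 12 were higher in the remaining basal cells. How far handling of the tissue moves with these values was not tested.

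The wound keratin Krt16 was lower with all 3 inhibitors. It had 93.4 CPM with the ERK inhibitor, 170.1 with the ErbB2 inhibitor, 293 with the FGFR inhibitor and 475 with DMSO. Its log2 ratios were -2.32 (-2.73 to -1.99) with the ERK inhibitor, -1.48 (-1.60 to -1.37) with the ErbB2 inhibitor and -0.70 (-0.81 to -0.59) with the FGFR inhibitor. The values within cluster 22 were -1.44 with the ERK inhibitor, -1.30 with the ErbB2 inhibitor and -0.92 with the FGFR inhibitor, and in the remaining basal cells -1.63 with the ERK inhibitor, -0.48 with the ErbB2 inhibitor and -0.47 with the FGFR inhibitor. Endothelial Krt16 was 25.9 CPM with the ERK inhibitor, 128 with the ErbB2 inhibitor, 99.9 with the FGFR inhibitor and 264 with DMSO, in the same order of libraries but for the ErbB2 and FGFR inhibitors. Krt17, its relative in wounds and follicles, had 263 CPM with the ERK inhibitor, 285 with the ErbB2 inhibitor, 528 with the FGFR inhibitor and 484 with DMSO. It was lower with the ERK and ErbB2 inhibitors, by -0.87 (-1.10 to -0.66) and -0.76 (-0.86 to -0.67), and close to DMSO with the FGFR inhibitor at 0.13 (0.040 to 0.21).

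Of the wound keratinocyte list, 10 of 11 measured genes were lower and none higher with the ErbB2 inhibitor (median -1.48), against 1 higher and 7 of 15 lower in the remaining basal cells (median -0.51). The 10 included the matrix genes Tnc with 31.6 CPM with the ErbB2 inhibitor, against 61.9 with DMSO, and Mmp9 with 7.25 CPM with the ErbB2 inhibitor, against 29.4 with DMSO, and the EGF receptor ligand Areg with 1.17 CPM with the ErbB2 inhibitor, against 6.02 with DMSO. S100a8, S100a9 and Sprr1b are among the 10, at the level of free RNA, so their difference is not read as one of cycling basal cells. The list counted 1 higher and 6 of 8 lower with the ERK inhibitor, and 1 higher and 5 of 11 lower with the FGFR inhibitor. Within cluster 19 it gave 0 higher and 8 lower of 10 (median -1.22) with the ErbB2 inhibitor, and within cluster 22 0 higher and 7 lower of 8 (median -1.24).

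Krt5, Krt14 and Lama3 were lower with the ErbB2 inhibitor, and the keratin ratios were farther from 0 in cluster 22 than in cluster 19. Krt5 had a log2 ratio of -0.84 (-0.86 to -0.83) and Krt14 of -0.85 (-0.88 to -0.81) from the levels given above. Weighted to DMSO's mix they were -0.56 and -0.54, within cluster 19 -0.39 and -0.38, and within cluster 22 -0.83 and -0.82. Endothelial Krt5 was 1567 CPM with the ErbB2 inhibitor and 5089.6 with DMSO, beside 4040.1 and 7188 CPM in cluster 22. Free keratin RNA was thus lower with the ErbB2 inhibitor too, and its part in these ratios was not tested. Lama3, a chain of laminin 332 in the basement membrane, had 18.7 CPM with the ErbB2 inhibitor, against 43.1 with DMSO. Of the basal and adhesion list these 3 of 15 were lower and none higher, and within cluster 22 7 of 14 were lower (median -0.61). With the ERK inhibitor the lower genes were Col17a1, a hemidesmosome collagen, with 334 CPM with the ERK inhibitor, against 742 with DMSO, Dst, a plakin of the same structure, with 185 CPM with the ERK inhibitor, against 665 with DMSO, and Lama3. Col17a1 was -0.031 within cluster 19 and -1.42 within cluster 22.

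Desmosome genes, which join keratinocytes to each other, were lower with the ERK inhibitor. None of the list was higher and 6 of 10 were lower (median -0.92), against 1 higher and 4 lower of 13 (median 0.19) in the remaining basal cells. Dsp, the desmoplakin that links keratin filaments to desmosomes, had 419 CPM with the ERK inhibitor, 582 with the ErbB2 inhibitor, 638 with the FGFR inhibitor and 778 with DMSO. Jup, or plakoglobin, had 97.8 CPM with the ERK inhibitor, 129.8 with the ErbB2 inhibitor, 125 with the FGFR inhibitor and 426 with DMSO. Jup was lower with all 3 inhibitors, by log2 ratios of -2.10 (-2.49 to -1.77) with the ERK inhibitor, -1.71 (-1.85 to -1.58) with the ErbB2 inhibitor and -1.76 (-1.93 to -1.61) with the FGFR inhibitor, and in the remaining basal cells by -1.80 with the ERK inhibitor, -1.58 with the ErbB2 inhibitor and -1.89 with the FGFR inhibitor. Endothelial Jup, too, was 20.7 CPM with the ERK inhibitor, 121 with the ErbB2 inhibitor, 60.8 with the FGFR inhibitor and 333 with DMSO, so Jup is higher in the DMSO library beyond keratinocytes. All 3 comparisons rest on that 1 DMSO library.

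Suprabasal genes were lower with the ERK and FGFR inhibitors. Krt10 had 565 CPM with the ERK inhibitor, 5675 with the ErbB2 inhibitor, 2387 with the FGFR inhibitor and 8329 with DMSO. Its log2 ratios were -3.88 (-4.03 to -3.74) with the ERK inhibitor, -0.55 (-0.57 to -0.53) with the ErbB2 inhibitor and -1.80 (-1.84 to -1.77) with the FGFR inhibitor. Krt1, its partner, had 200.02 CPM with the ERK inhibitor, 1917 with the ErbB2 inhibitor, 876 with the FGFR inhibitor and 2959 with DMSO. Of the early differentiation list 7 of 8 were lower with the ERK inhibitor (median -3.46) and 8 of 11 with the FGFR inhibitor (median -0.68), while the ErbB2 inhibitor gave 1 higher and 2 lower of 11 (median -0.28). The remaining basal cells gave 1 higher and 4 lower of 8 (median -0.81) with the ERK inhibitor and 1 higher and 7 lower of 11 (median -0.95) with the FGFR inhibitor. Krtdap, a secreted protein of the spinous layer, had 664 CPM with the ERK inhibitor, 5778 with the ErbB2 inhibitor, 2915 with the FGFR inhibitor and 5492 with DMSO.

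In endothelium, by the levels given above, as in cycling basal cells, Krt10 was lowest with the ERK inhibitor, next lowest with the FGFR inhibitor, and high with the ErbB2 inhibitor and DMSO, of which DMSO was the higher in cycling basal cells and the ErbB2 inhibitor in endothelium. Krt10 in cycling basal cells was below the endothelial level in every spiny mouse library. A lower Krt10 in cycling basal cells therefore cannot be told apart from less suprabasal free RNA in the ERK and FGFR inhibitor libraries. Late differentiation genes were lower too, 7 of 7 with the ERK inhibitor and 10 of 12 with the FGFR inhibitor, and most of those are at the level of free RNA. Ivl, the cornified envelope protein involucrin, was not, with 4.54 CPM with the FGFR inhibitor, against 16.2 with DMSO.

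In the mouse, 5 of 11 early differentiation genes were lower with FGF2 and NRG1 beads and none higher (median -0.57), beside 5.43% of all genes. Krt10 had 236 CPM with FGF2 and NRG1 beads, against 749 with PBS beads, a log2 ratio of -1.66 (-1.82 to -1.51). With PBS beads 1 cell held 58.6% of the Krt10 UMIs, and as a mean over cells the ratio was -0.63. By the levels given above, Krt10 with FGF2 and NRG1 beads was close to that of endothelial cells. Endothelial Krt10 was also lower with FGF2 and NRG1 beads than with PBS beads, and the part of free RNA was not tested. Krtdap had 457 CPM with FGF2 and NRG1 beads, against 869 with PBS beads, a log2 ratio of -0.92 (-1.05 to -0.80), and was lower in cluster 19 at -0.82 and in cluster 22 at -0.86. Krt2, a late suprabasal keratin, had 105 CPM with FGF2 and NRG1 beads, against 566 with PBS beads, with 45.4% of the PBS UMIs in 1 cell and a log2 ratio of -0.11 within cluster 22. Mt4, the metallothionein of stratified epithelium, had 29.4 CPM with FGF2 and NRG1 beads, against 164 with PBS beads, with 38.9% of the PBS UMIs in 1 cell. For Krtdap 1 cell held 27.1%, so Krt10, Krt2 and Mt4 rest more on single cells. In the remaining basal cells the list gave 0 higher and 2 lower of 12 (median -0.12).

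**Figure D4:**
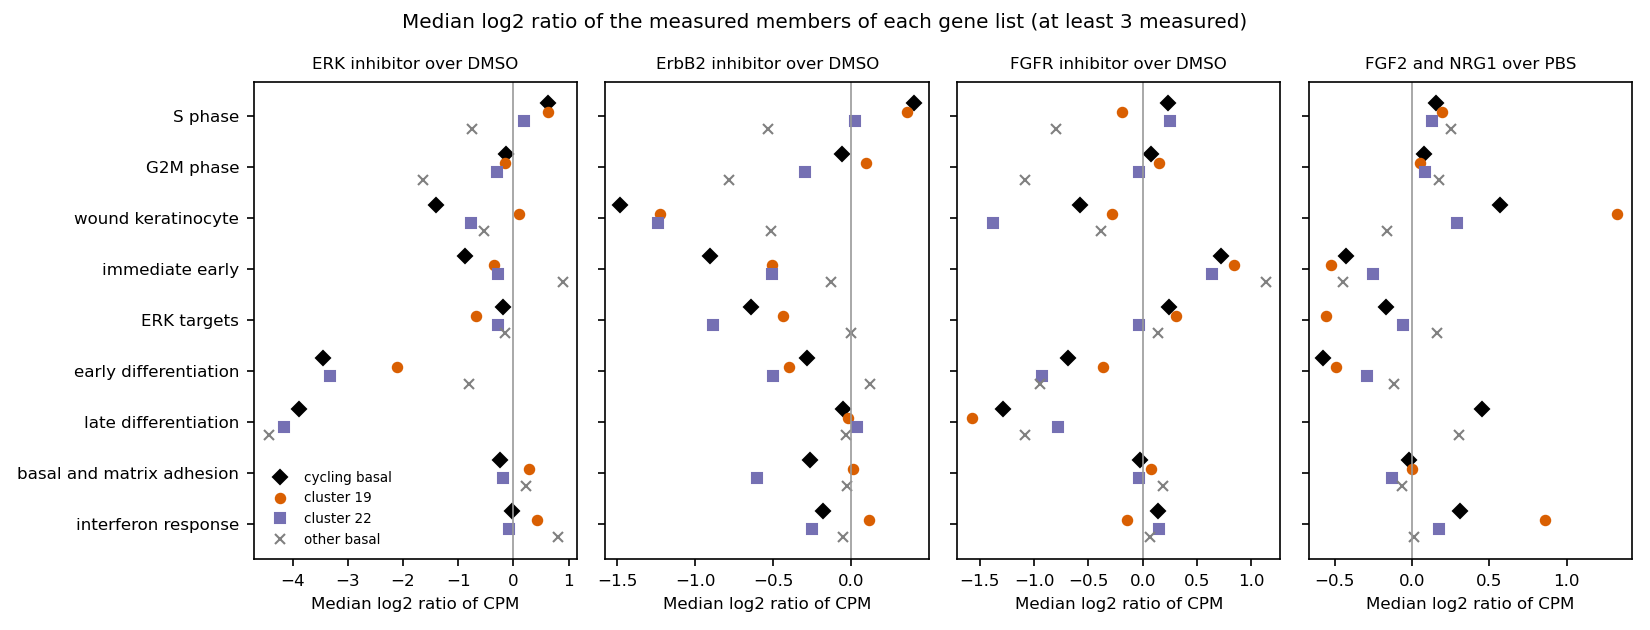
Median log2 ratio of the measured genes of 9 lists in each of the 4 comparisons, in all cycling basal cells, clusters 19 and 22 and the remaining basal cells, for lists with at least 3 measured genes. The horizontal scales differ between panels. With the ERK inhibitor the S list lies above 0 in cycling basal cells and below 0 in the remaining basal cells, and differentiation lists lie below 0 with the ERK and FGFR inhibitors.

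**Figure D5:**
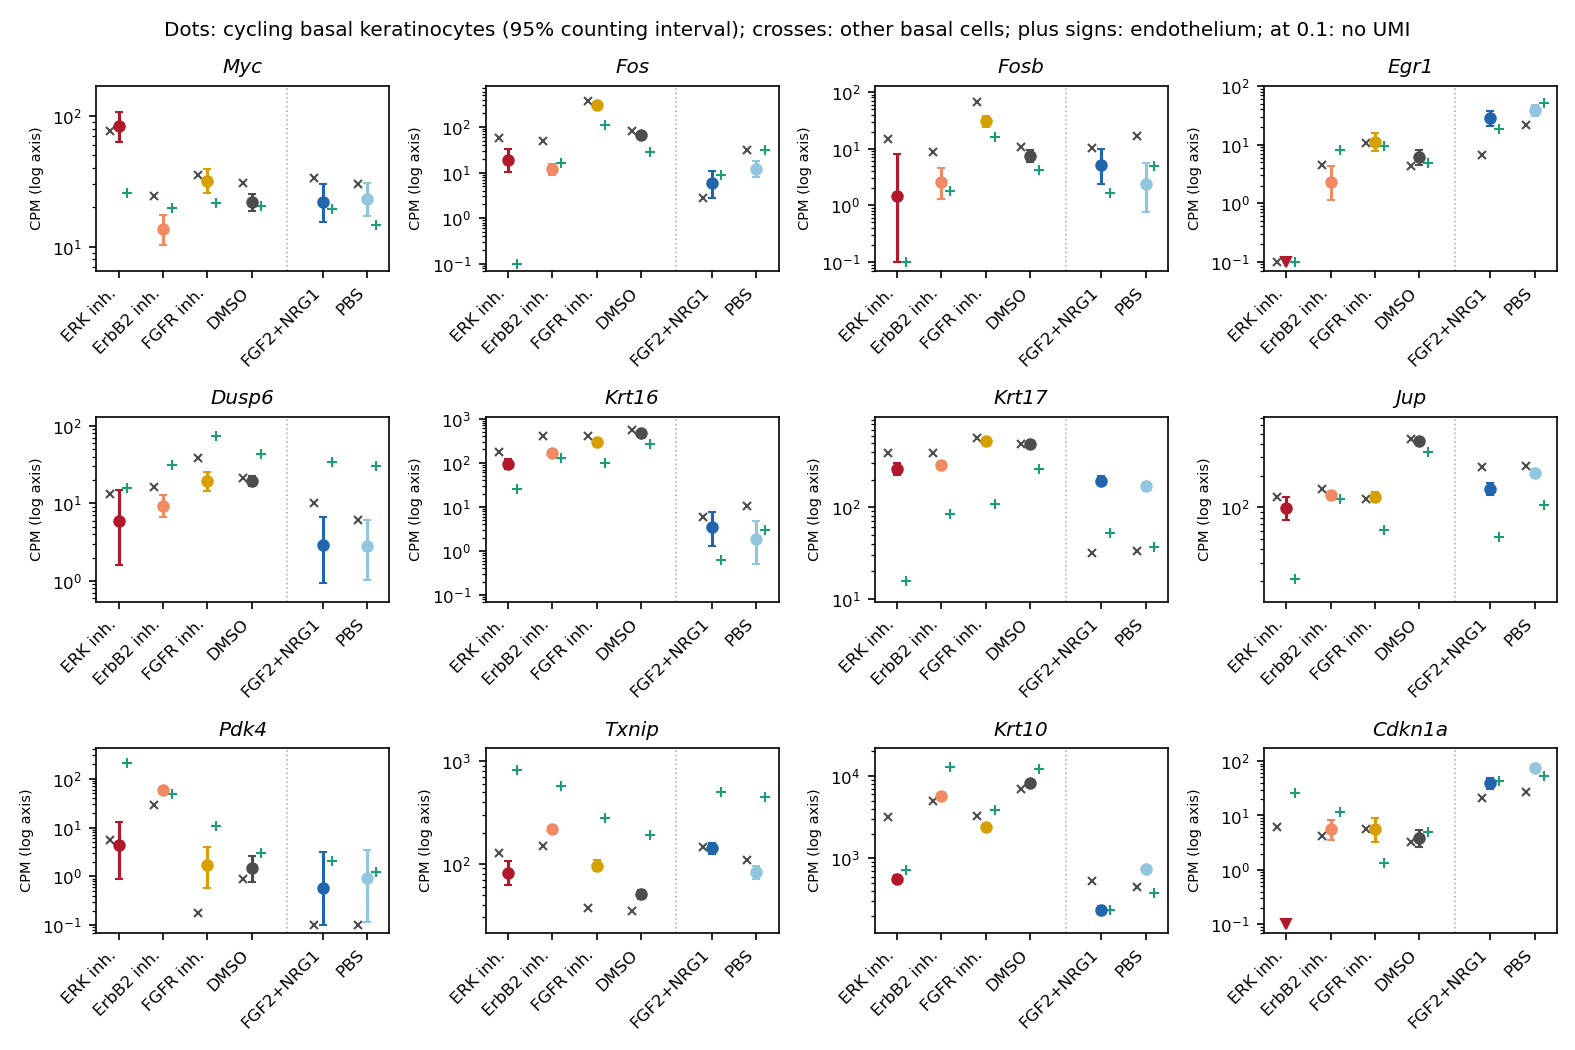
Levels of Myc, Fos, Fosb, Egr1, Dusp6, Krt16, Krt17, Jup, Pdk4, Txnip, Krt10 and Cdkn1a (CPM, log axis) in cycling basal cells of each library with 95% counting intervals, beside the remaining basal cells (crosses) and endothelium (plus signs), with 0.1 standing for no UMI. Among the spiny mouse libraries Fos stands highest with the FGFR inhibitor in all 3 classes of cells, Myc with the ERK inhibitor in all 3, and Pdk4 with the ErbB2 inhibitor in the 2 basal classes but with the ERK inhibitor in endothelium.

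The 10 highest genes with the ERK inhibitor were Saa1, Hp, Saa3, Cxcl5, Lcn2, Irak3, Chil1, Steap4, Cp and Akr1d1. Saa1, Saa3 and Hp encode acute-phase proteins, and Cxcl5 attracts neutrophils. Lcn2, the iron-scavenging lipocalin, had 423 CPM with the ERK inhibitor, 58.2 with the ErbB2 inhibitor, 73.0 with the FGFR inhibitor and 25.6 with DMSO. It had UMIs with the ERK inhibitor in 20 of 33 cells, against 139 of 1344 with DMSO, and its log2 ratio was 4.05 (3.79 to 4.31) over all cells and 2.84 within cluster 22. Endothelial Lcn2 was 156 CPM with the ERK inhibitor and 40.6 with DMSO. Saa3, a serum amyloid A of tissues, had 220.5 CPM with the ERK inhibitor, against 10.8 with DMSO, with UMIs in 14 of 33 cells and 47.0% of them in 1 cell. In sebaceous cells Saa3 had 823 CPM with the ERK inhibitor, against 15.7 with DMSO, and in the remaining basal cells 1.56, against 1.11. Chil1, a chitinase-like protein, had 283 CPM with the ERK inhibitor, against 34.5 with DMSO, with UMIs in 19 cells. Saa1 had 152 CPM with the ERK inhibitor, against 2.46 with DMSO, but 86.5% of its UMIs lay in 1 cell. Lcn2 and Chil1 were thus spread over more cells than Saa1, and Lcn2 is among the 65 genes higher in cluster 22 than in cluster 19.

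The 10 lowest genes with the ERK inhibitor were Krt25, Klk8, Sprr1b, Krt71, Tchh, Krt77, Flg, Col1a2, Mcpt4 and Vim. Krt25, Sprr1b, Krt71, Flg, Col1a2 and Vim were at the level of free RNA, and they are known from the inner root sheath, the cornified layer and the dermis. Klk8, a protease of the granular layer, had 0 UMIs with the ERK inhibitor, which makes it at least 16.2-fold lower than with DMSO. Krt77, an early suprabasal keratin, had 5.84 CPM with the ERK inhibitor, against 298 with DMSO.

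Metabolic genes differed as well with the ERK inhibitor. Of the cholesterol and fatty acid list 7 of 10 were lower and none higher (median -0.71), with 7 of 10 lower within cluster 22 and 7 of 10 in the remaining basal cells. Acly, which makes the acetyl-CoA for lipid synthesis, had 45.3 CPM with the ERK inhibitor, against 84.2 with DMSO. The same number of genes was lower in both basal classes. Of the oxidative stress list 5 of 11 were higher and 2 lower. Prdx1, a peroxide scavenger, had 1132 CPM with the ERK inhibitor, against 477 with DMSO, and Mt1, a metallothionein, 2857 CPM with the ERK inhibitor, 1997 with the ErbB2 inhibitor, 1401 with the FGFR inhibitor and 1072 with DMSO. Endothelial Mt1 was 2826 CPM with the ERK inhibitor, 664 with the ErbB2 inhibitor, 154 with the FGFR inhibitor and 223 with DMSO, so its level with the ERK inhibitor was high beyond keratinocytes. Ldha, of glycolysis, had 902 CPM with the ERK inhibitor, against 574 with DMSO, and Hspa8, a constitutive chaperone, 1613 CPM with the ERK inhibitor, against 1069.6 with DMSO. Il18, a cytokine that keratinocytes store, had 54.0 CPM with the ERK inhibitor, against 211 with DMSO, a log2 ratio of -1.93 (-2.48 to -1.50) and of -0.66 weighted to DMSO's mix of clusters.

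Pdk4 was among the 10 highest genes with the ErbB2 inhibitor. This kinase, which shuts off pyruvate dehydrogenase in fasting tissues, had 4.38 CPM with the ERK inhibitor, 58.2 with the ErbB2 inhibitor, 1.75 with the FGFR inhibitor and 1.47 with DMSO. It was found in 96 of 498 cells with the ErbB2 inhibitor and in 12 of 1344 with DMSO, with no more than 5.22% of its UMIs in 1 cell. Its log2 ratio was 5.19 (4.47 to 6.28), 4.51 within cluster 22 and 4.91 in the remaining basal cells. Endothelial Pdk4 was 207 CPM with the ERK inhibitor, 48.6 with the ErbB2 inhibitor, 10.8 with the FGFR inhibitor and 3.01 with DMSO, so the difference with the ErbB2 inhibitor extended beyond keratinocytes, and the ERK inhibitor library was high in endothelium and not in basal cells.

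Txnip, Glul and Fkbp5 were among the highest genes of both clusters with the ErbB2 inhibitor, and they were picked after their values were seen. Txnip, which limits glucose uptake, had log2 ratios of 1.48 in cluster 19, 1.99 in cluster 22 and 2.09 in the remaining basal cells. Glul, the glutamine synthetase, had 1.60 in cluster 19, 1.95 in cluster 22 and 1.99 in the remaining basal cells. Fkbp5, a chaperone that limits the glucocorticoid receptor, had 2.14 in cluster 19, 1.46 in cluster 22 and 1.94 in the remaining basal cells, and Tsc22d3, the glucocorticoid-induced leucine zipper, had 9.59 CPM with the ErbB2 inhibitor, against 1.97 with DMSO. Txnip, Glul and Fkbp5 were thus higher in both clusters and in the remaining basal cells. Osgin2 had 89.1 CPM with the ErbB2 inhibitor, against 19.3 with DMSO, with log2 ratios of 2.20 in cycling basal cells and 0.98 in the remaining basal cells. Erbb3, the neuregulin receptor that pairs with ErbB2, had 9.12 CPM with the ErbB2 inhibitor, against 3.93 with DMSO, a log2 ratio of 1.21 (0.50 to 1.94) on few UMIs.

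Clusters 19 and 22 shared part of their differences with the ErbB2 inhibitor. Of 7102 genes measured in both, 7.42% were higher in cluster 19 and 6.35% in cluster 22, and 107 (20.3% of those of cluster 19 and 23.7% of those of cluster 22) were higher in both. Lower genes were 4.82% in cluster 19 and 8.98% in cluster 22, and 112 (32.7% of those of cluster 19 and 17.6% of those of cluster 22) were lower in both. Within a library the clusters also share the same free RNA.

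Tchhl1, Crisp1, Tchh, Krtap15, Krtap7-1 and Krt7 were among the 10 lowest genes with both the ErbB2 and the FGFR inhibitor, comparisons that share the DMSO library. Tchh, the trichohyalin of the inner root sheath, had 5.84 CPM with the ERK inhibitor, 7.95 with the ErbB2 inhibitor, 7.33 with the FGFR inhibitor and 302 with DMSO, and endothelial Tchh was 5.18 CPM with the ERK inhibitor, 0 with the ErbB2 inhibitor, 13.5 with the FGFR inhibitor and 181 with DMSO. With DMSO, 1 cell held 29.6% of its UMIs. Tchhl1, a relative of it, had no UMI with the ErbB2 or the FGFR inhibitor, at least 39.9-fold and at least 26.8-fold below DMSO, where 20 of 1344 cells had it. Krt7, a keratin of glands, had 2.11 CPM with the ErbB2 inhibitor, against 55.7 with DMSO, with 40.2% of the DMSO UMIs in 1 cell.

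With the FGFR inhibitor, the 10 highest genes were Myoc, Nr4a1, Fos, Cp, Fosb, Cxcl5, Isg15, Mmp3, Ces1g and Rbp4. Mmp3 had 88.6% and Myoc 57.6% of their UMIs in 1 cell. Cp, the copper-binding ceruloplasmin, had 78.2 CPM with the FGFR inhibitor, against 17.3 with DMSO, with UMIs in 78 of 282 cells. Lcn2 was higher here too, with a log2 ratio of 1.46 in cluster 19 and 0.93 in cluster 22. Ccn1, a matrix protein induced by YAP and serum, had 52.0 CPM with the FGFR inhibitor, against 28.3 with DMSO, and Thbs1, a thrombospondin, 34.2 CPM with the FGFR inhibitor, against 18.9 with DMSO.

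With FGF2 and NRG1 beads, genes of the interferon response list were higher in cluster 19. Within that cluster 8 of 9 measured interferon response genes were higher and none lower (median 0.86), beside 8.85% of all genes measured there. Cluster 22 gave 1 higher and 1 lower of 10 (median 0.17), and the remaining basal cells 1 higher and 2 lower of 14 (median 0.012). B2m, the light chain of class I molecules, had 825 CPM with FGF2 and NRG1 beads, against 592 with PBS beads over all cycling basal cells, with log2 ratios of 1.01 in cluster 19 and 0.14 in cluster 22. The heavy chains H2-K1 and H2-D1 had 1.01 and 0.99 in cluster 19, against 0.20 and 0.41 in cluster 22. The difference between clusters was not tested. Over all cycling basal cells, 15 of 186 with FGF2 and NRG1 beads had at least 1% of their UMIs in markers of other cell types, red cells included. With PBS beads there were 3 of 194, and the part of such cells in the cluster 19 values was not tested. Class I genes are near-identical copies of one another, so their counts may be split unevenly among them.

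Some inhibitors of the cycle and p53 targets were lower in the same cluster. Cdkn1a had 39.2 CPM with FGF2 and NRG1 beads, against 75.7 with PBS beads, a log2 ratio of -0.94 (-1.38 to -0.53). It was -1.76 in cluster 19, -0.18 in cluster 22 and, as a mean over cells, -0.063. It had UMIs in 48 of 186 cells with FGF2 and NRG1 beads and in 60 of 194 with PBS beads. Sfn, the 14-3-3 protein that p53 induces in epithelia, had 711 CPM with FGF2 and NRG1 beads, against 1232 with PBS beads, with -0.95 in cluster 19 and -0.56 in cluster 22. Of the list of inhibitors and p53 targets, 5 of 12 were lower in cluster 19 and none higher, beside 7.59% of all genes measured there. Krt15, a basal keratin, had 3739 CPM with FGF2 and NRG1 beads, against 5370.4 with PBS beads, a log2 ratio of -0.52 (-0.57 to -0.48), and of -0.83 in the remaining basal cells.

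The 10 highest genes with FGF2 and NRG1 beads were Spp1, Lrg1, Plek, Ccl4, Ccl21a, Acta2, Lcp1, Plvap, Flg and Tyrobp. Spp1, Lrg1 and Tyrobp were at the level of free RNA. Acta2, the smooth muscle actin, had 90.9% and Ccl21a, a chemokine of lymphatic vessels, 94.3% of their UMIs in 1 cell, and Ccl4 was seen in 2 cells. AY036118, which is annotated over ribosomal RNA repeats, had 313 CPM with FGF2 and NRG1 beads, against 1121 with PBS beads, a log2 ratio of -1.84 (-1.98 to -1.70). It was lower to a like extent in cluster 19, cluster 22 and the remaining basal cells, at -1.89, -1.67 and -1.92, and endothelial cells had 346 CPM with FGF2 and NRG1 beads and 1232 with PBS beads. This difference between the mouse libraries was thus not confined to cycling basal cells. Hist1h2an, a replication-dependent histone whose message lacks a poly(A) tail, had 8.65 CPM with FGF2 and NRG1 beads, against 45.9 with PBS beads, with UMIs in 14 cells with FGF2 and NRG1 beads and in 39 with PBS beads.

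Markers of other cell types were present at low summed levels. Fibroblast markers summed to 234 CPM with the ERK inhibitor, 321 with the ErbB2 inhibitor, 399.7 with the FGFR inhibitor and 492 with DMSO, and 229 with FGF2 and NRG1 beads and 108 with PBS beads. Of the 8, 2 were detected with the ERK inhibitor and Col1a1, Col1a2, Col3a1, Lum, Pdgfra and Fn1 had no UMI. Endothelial markers summed to 0 CPM with the ERK inhibitor, 1.87 with the ErbB2 inhibitor, 6.28 with the FGFR inhibitor and 8.72 with DMSO, and 44.99 with FGF2 and NRG1 beads and 23.2 with PBS beads, against at least 1144 in endothelial cells. Neutrophil markers summed to 149 CPM with the ERK inhibitor, 311 with the ErbB2 inhibitor, 174 with the FGFR inhibitor and 119 with DMSO, and 40.9 with FGF2 and NRG1 beads and 30.3 with PBS beads, so the inhibitor libraries were higher than DMSO.

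Red cell markers summed to 1749 CPM with the ERK inhibitor, 310.4 with the ErbB2 inhibitor, 305 with the FGFR inhibitor and 666 with DMSO, and 657 with FGF2 and NRG1 beads and 309.7 with PBS beads. Inner root sheath markers summed to 56.9 CPM with the ERK inhibitor, 123 with the ErbB2 inhibitor, 104 with the FGFR inhibitor and 636 with DMSO, and 512 with FGF2 and NRG1 beads and 326 with PBS beads. In endothelium of the same libraries the inner root sheath markers summed to 46.7 CPM with the ERK inhibitor, 52.2 with the ErbB2 inhibitor, 95.9 with the FGFR inhibitor and 703 with DMSO, and 551 with FGF2 and NRG1 beads and 273 with PBS beads. Inner root sheath RNA in cycling basal cells thus tracked that in endothelium. Sebaceous markers summed to 659.9 CPM with the ERK inhibitor, 699 with the ErbB2 inhibitor, 384 with the FGFR inhibitor and 362 with DMSO, and 618 with FGF2 and NRG1 beads and 666 with PBS beads, and were higher with the ERK and ErbB2 inhibitors than with DMSO and close to DMSO with the FGFR inhibitor. Cluster 22 gives a larger part of the UMIs in all 3 inhibitor libraries than with DMSO. What part any of these types has in the differences above was not tested.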

How the data were processed

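Libraries were made with 10x Genomics 3' v3.1 reagents, per the labels' protocols, and Cell Ranger 6.1.1 and the mouse build GRCm38 (mm10) are named in the submitters' processing notes. The sources used here do not name the reference for spiny mouse reads or the filters by which cells were kept. The authors deposited whole-number UMI counts for 20381 genes in 39577 cells, and a table of cells with library, cluster, cell type and the percent of UMIs from ribosomal and mitochondrial genes, per the file headers. Genes carry mouse symbols, and 5345 had no UMI in any spiny mouse cell and 986 in any mouse cell. A gene that diverged from the mouse may be undercounted, so no level was compared between species. Gene coordinates come from GENCODE vM21 on GRCm38.

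For each library and cell class counts were added up, and levels are scaled to a common total of 1000000 UMIs (CPM). Log2 ratios have 1 UMI added to each count, and their 95% intervals are exact conditional binomial ones. Shares have exact Clopper-Pearson intervals, and sums have exact Poisson ones. A gene with no UMI was bounded with a floor of 3 UMIs per library. Intervals and floors cover counting error only, and the smaller the class the wider they are. Each group was 1 library, so no test was run. Where depth differs, the added UMI moves ratios of genes with few UMIs towards 0. Cells were thinned to 3000 UMIs with 1 seed.

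Genes named in a comparison are the 10 highest and 10 lowest ratios among measured genes with a symbol, up to 4 members of each programme list with the most UMIs, and Mki67, Top2a, Ube2c, Ccnb1, Krt5, Krt14, Dusp6, Spry2, Etv4, Ccnd1, Myc and Cdkn1a. Other list members named were picked after their values were seen, and not every gene under the rule is printed. The cells, lists and rules were chosen with earlier results of these data known. The alternatives were other depths, limits, lists, denominators, filters, pseudocounts and sets of cells. The calculations were checked on simulated data. Software was Python 3.11.15, NumPy 2.4.6, SciPy 1.17.1, pandas 2.3.3 and matplotlib 3.10.9.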

Additional observations from a re-analysis of the deposited data

Results flagged for a closer look

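For 6 pairs of cell classes the summed cycle lists lay on opposite sides of the control, in intervals that cover counting error only, and none of these differences between classes was tested. The S list with the ERK inhibitor had a log2 ratio of 0.60 (0.55 to 0.66) in cycling basal cells and -0.79 (-0.87 to -0.72) in the remaining basal cells. With the ErbB2 inhibitor it had 0.29 (0.25 to 0.32) in cycling basal cells and -0.46 (-0.50 to -0.43) in the remaining basal cells. With the FGFR inhibitor the 2 values were 0.14 (0.11 to 0.18) in cycling basal cells and -0.74 (-0.77 to -0.70) in the remaining basal cells. The 3 comparisons share the DMSO library. The higher values in cycling basal cells did not hold in every cluster: with the FGFR inhibitor the S list had -0.068 weighted to DMSO's mix of clusters, -0.20 in cluster 19 and -0.22 in cluster 24, and with the ErbB2 inhibitor -0.032 in cluster 22.

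Clusters 19 and 22 also lay on opposite sides with the FGFR inhibitor. The S list had -0.20 (-0.26 to -0.15) in cluster 19 and 0.16 (0.11 to 0.22) in cluster 22. The G2/M list had 0.20 (0.18 to 0.22) in cluster 19 and -0.062 (-0.089 to -0.035) in cluster 22. Over all cycling basal cells the G2/M list had 0.13 (0.11 to 0.14) with the FGFR inhibitor, against -0.55 (-0.58 to -0.52) in the remaining basal cells. Endothelial cells, which are no keratinocytes, had -0.28 for the S list and -0.62 for the G2/M list in the same comparison, so the values of the remaining basal cells go in the direction of free RNA, whose part was not tested.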

How the results depend on the processing

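Results are given by comparison, named ERK, ErbB2 and FGFR for each inhibitor over DMSO and FGF2 for FGF2 and NRG1 beads over PBS beads. Among all interfollicular cells the share moved to 11.4% (ERK), 8.83% (ErbB2), 11.2% (FGFR), 15.9% (DMSO), 18.2% (FGF2) and 18.0% (PBS), and among cells of at least 3000 UMIs to 6.53% (ErbB2), 8.04% (FGFR), 12.2% (DMSO) and 4.199% (FGF2). The G2/M side moved to 57.4% (ErbB2), 70.1% (FGFR) and 79.1% (DMSO) with limits of 1/4 and 3/4, and to 8.33% (ERK), 15.6% (ErbB2), 12.7% (FGFR), 13.7% (DMSO), 47.5% (FGF2) and 44.6% (PBS) with role lists. Thinned to 1500 UMIs, no G2/M share moved by more than its interval. With at least 3 expected UMIs, higher genes numbered 1465 (ERK), 1242 (ErbB2), 916 (FGFR) and 1257 (FGF2) and lower genes numbered 980 (ERK), 1025 (ErbB2), 839 (FGFR) and 1009 (FGF2). With at least 30, higher genes numbered 272 (ERK), 458 (ErbB2), 167 (FGFR) and 164 (FGF2) and lower genes numbered 218 (ERK), 311 (ErbB2), 197 (FGFR) and 171 (FGF2). Centred on the median ratio, the G2/M list had -0.14 (ERK) and -0.22 (ErbB2). Thinned to 3000 UMIs, higher genes numbered 210 (ERK) and 386 (FGF2) and lower genes numbered 95 (ERK) and 284 (FGFR). There the S list had -0.011 (FGF2, reversed) and the G2/M list had -0.14 (ERK), -0.26 (ErbB2), 0.033 (FGFR) and 0.22 (FGF2). As a mean over cells, higher genes numbered 1203 (ERK) and 1491 (FGF2) and lower genes numbered 1082 (ERK) and 1427 (FGF2). There the S list had 0.71 (ERK) and the G2/M list had 0.11 (ERK, reversed), -0.24 (ErbB2), 0.067 (FGFR) and 0.14 (FGF2). Weighted to the control mix, higher genes numbered 1372 (ERK). There the S list had 0.18 (ErbB2) and -0.068 (FGFR, reversed) and the G2/M list had 0.11 (ERK, reversed), -0.13 (ErbB2) and 0.090 (FGFR). Reversed genes there were Dsc3 at 0.081 (ERK) and Fst at 0.12 (ERK). Cluster 19 alone, higher genes numbered 347 (ERK) and 287 (FGFR) and lower genes numbered 216 (ERK) and 389 (ErbB2). There the S list had 0.48 (ERK) and -0.20 (FGFR, reversed) and the G2/M list had -0.047 (ERK), -0.0079 (ErbB2) and 0.20 (FGFR). Reversed genes there were Fgfbp1 at -0.24 (ERK), Rbp2 at 0.61 (ERK), Sfn at 0.22 (ERK) and Ccl27a at 0.0091 (FGF2). Cluster 22 alone, the S list had 0.13 (ERK), -0.032 (ErbB2, reversed in sign, with an interval of -0.079 to 0.015) and 0.048 (FGF2). There the G2/M list had -0.22 (ERK), -0.48 (ErbB2), -0.062 (FGFR, reversed) and 0.10 (FGF2). Reversed genes there were Ccl27a at -1.27 (ERK), Fgfbp1 at -0.21 (ERK), Pcna at -0.00013 (ERK), Perp at 0.018 (ERK), Ccl20 at -0.80 (ErbB2), Fst at -0.21 (ErbB2), Slpi at 1.30 (ErbB2) and Slpi at 0.28 (FGFR). Without the deepest cells, the S list had 0.32 (ErbB2), 0.18 (FGFR) and 0.0093 (FGF2) and the G2/M list had 0.11 (FGFR) and 0.13 (FGF2). Reversed genes there were S100a8 at -0.011 (ERK). Without cells carrying other types' markers, the S list had 0.67 (ERK) and the G2/M list had -0.14 (ERK). Reversed genes there were Retnla at -1.97 (ErbB2). The cause was not tested where a value moved, beyond what the construction gives: a lower filter admits more genes, a higher one fewer, and 1 cluster holds fewer cells. Clusters 19 and 22 alone were chosen after the data were seen. No paired analysis was possible because each group was 1 library. Leaving out a replicate was not possible for the same reason. Depth limits the ERK inhibitor library most, with 33 cells, of which clusters 19 and 24 hold 5 and 7, so its mix-weighted values rest on those. Spread between animals cannot be told apart from treatment in any comparison.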
